A study of Homo sapiens with 24 samples.

Results

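The knockout (KO) of MSTRG.4401.1 in A549 cells was compared with unedited A549 cells. A549 is a human cell line from a lung adenocarcinoma that carries traits of alveolar epithelium. MSTRG.4401.1 is a transcript assembled from reads, and the editing removed its DNA-binding domain (DBD), the stretch by which a long noncoding RNA (lncRNA) is predicted to pair with DNA at its target sites. The 6 libraries were taken by their sample labels, 3 of MSTRG.4401.1 KO (S23, S24 and S25) and 3 of wild type (S20, S21 and S22), out of 24 in the whole series. The editing was by CRISPR/Cas9, and nothing else separates the 2 groups in the labels, which give no treatment or age for either. They do not say whether the KO is 1 clone or whether the 3 libraries of a group came from separate cultures, so the p-values measure the spread between these libraries, which may be technical. Values are given throughout in the order S23, S24 and S25 for the KO and S20, S21 and S22 for wild type.

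The comparison asks which genes change when the DBD is lost. The transcript has no row of its own in the count tables, so the KO could not be checked at its target. A lncRNA of this kind is thought to bring chromatin-modifying enzymes to the sites where its DBD binds, and loss of binding may then raise or lower nearby transcription. An A549 cell also keeps mesenchymal traits, such as vimentin and fibronectin, beside epithelial keratins and a set of liver-type secreted proteins, and these programs are controlled by TGF-β, YAP and HNF factors in epithelial cells.

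Total counts were 25799359 to 33205007 in the KO and 41563496 to 59466012 in wild type, so that 3 counts, the floor used for a gene at 0, were 0.0904 to 0.116 CPM (counts of a gene per 1000000 counts of the library) in the KO and 0.0505 to 0.0722 CPM in wild type. The r of log2(CPM + 1) was 0.988 to 0.990 between KO libraries, 0.991 to 0.994 between wild-type libraries and 0.971 to 0.982 across the groups, and no libraries were duplicates by their counts. The 12 markers of A549 used for the check were detected in all 6 libraries and 0 of 12 were called by edgeR and 1, lower, by DESeq2 (9 had an unadjusted p under 0.05, 4 higher and 5 lower), with KRT8, an epithelial keratin, at 4135, 3390 and 4060 CPM against 2293, 2012 and 2260. Of 8 markers each for fibroblasts, leukocytes and endothelium, only 3, 2 and 1 had enough counts for the test, and CD3E, HLA-DRA, TYROBP, VWF, CDH5 and KDR were at 0 in all 6 libraries. THY1, CD14 and ITGAM fell, and COL1A1, ACTA2 and CLDN5 did not pass.

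A gene was called changed at FDR < 0.1 and |log2(fold change)| > 1 by the quasi-likelihood test of edgeR, where FDR is the p-value adjusted by Benjamini-Hochberg over all genes tested. Of 24979 genes tested, 3842 were called (15.4%), 2764 higher in the KO (11.1%) and 1078 lower (4.32%). Protein-coding and noncoding genes divided differently. Of 14508 protein-coding genes, 854 rose (5.89%) and 872 fell (6.01%), whereas of 2406 named noncoding genes 429 rose (17.8%) and 59 fell (2.45%). The noncoding count of 429 was 280 without KO library S24 and 263 without wild-type library S21. Pseudogenes and clone-named genes moved as the noncoding genes did, with 416 of 1935 pseudogenes and 1056 of 6092 clone-named genes higher and 31 and 115 lower. The median log2(fold change) was -0.19 over protein-coding, 0.55 over noncoding, 0.60 over pseudogenes and 0.55 over clone-named genes.

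The balance among protein-coding genes rested on the scaling. When libraries were scaled over protein-coding genes of the nuclear genome alone, without replication-dependent histones, the median of these genes moved from -0.19 to 0.016, and 1248 of 14471 rose (8.62%) while 593 fell (4.1%). With upper-quartile scaling 1189 rose and 626 fell, and with DESeq2 769 rose and 979 fell. The median also moved with the level of the gene. It was 0.41 for protein-coding genes with an average log2 CPM below 0 and -0.39 for those of 6 and above. The share called higher was 16.3% below 0, 16.7% from 0 to 2 and 1.51% at 6 and above. The share called lower was 9.84%, 10.75% and 4.34%. The gene lists were not set against genes of a like level. Because of the scaling, groups of nuclear protein-coding genes below are given with counts under the main scaling and under the scaling over protein-coding genes.

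**Figure D1:**
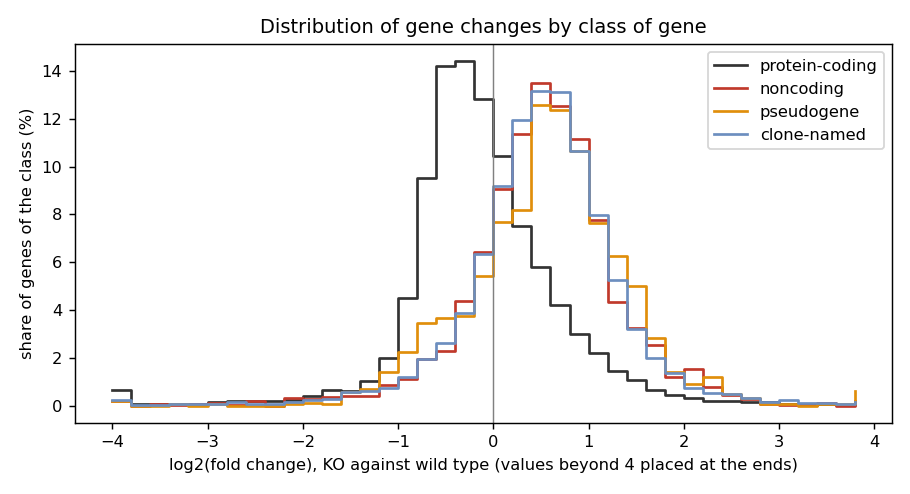
The plot gives the distribution of log2(fold change) of KO against wild type (x axis) as the share of genes of each class in percent (y axis), with a line each for protein-coding, noncoding, pseudogene and clone-named genes. Protein-coding genes peak below 0 (median -0.19) and the other classes above it (medians 0.55 to 0.60).

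The classes of RNA took different shares of the library. Protein-coding genes of the nuclear genome took 76.1%, 66.4% and 70.2% of counts in the KO and 81.4%, 86.4% and 86.9% in wild type. Noncoding genes took 16.6%, 21.7% and 19.2% against 13.1%, 8.59% and 8.09%, with wild-type library S20 nearest to the KO. Much of this share lay in 15 abundant polymerase III and RNase RNAs. Together they held a mean of 151200 CPM in the KO (128000 to 170000) and 73280 in wild type (54990 to 102000). Of 11 of them tested, 2 rose and 0 fell, beside 17.8% and 2.45% over all named noncoding genes. Mitochondrially encoded genes took 3.50%, 7.87% and 6.93% against 2.37%, 2.01% and 1.96%. The groups did not overlap for any of these 3 classes, and the two-sided exact permutation p was 0.1 for each, the smallest that 3 libraries against 3 can give. The other 18 libraries of the series held 1.39% to 3.24% mitochondrial, 78.7% to 86.5% coding and 7.32% to 15% noncoding counts, so that the KO libraries were outside these ranges for all 3 classes. Depth, the mitochondrial share and the noncoding share thus moved with the KO, and the part of the mitochondrial and noncoding shares in the results below was not tested. With wild-type libraries thinned to 28400000 counts, near the mean depth of the KO, 848 protein-coding genes rose and 824 fell, and 401 noncoding genes rose and 55 fell.

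**Figure D2:**
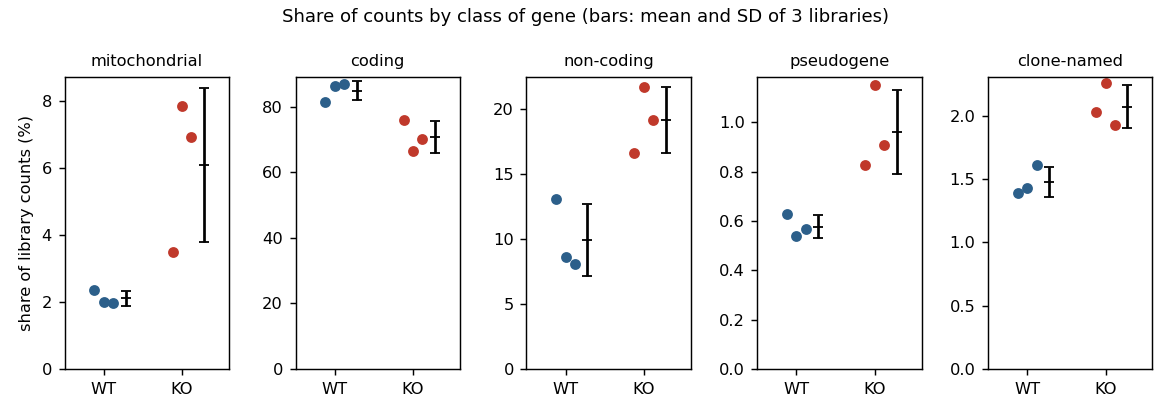
Each panel gives the share of library counts in percent (y axis) taken by a class of genes in the wild-type (WT) and KO libraries, with a point per library and bars for the mean and SD of 3. The KO libraries lie above wild type for mitochondrial, noncoding, pseudogene and clone-named genes and below it for protein-coding genes.

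Among protein-coding genes whose average log2 CPM was 1 or more, the largest falls were of genes that went to no or almost no counts. H1-5, a linker histone made in S phase (chromosome 6, 27866792 to 27867588, GRCh38), was at 0.0301, 0 and 0 CPM in the KO and at 66.8, 60.7 and 54.3 CPM in wild type. The KO libraries thus held 1 count against 9798, a 5223-fold lower level with a 95% counting interval of 937.2 to 206300 (FDR 1.06e-06). It was the only called gene of 60 replication-dependent histones tested, whose median log2(fold change) was -0.44. COL11A1, the α1 chain of a fibrillar collagen, had 0 counts in the KO and 5.40, 6.34 and 8.54 CPM in wild type, at least 63.2-fold lower (FDR 0.000106). LAYN, a hyaluronan receptor, had 0 counts in the KO and 4.5, 4.86 and 3.49 CPM in wild type, at least 40.0-fold lower (FDR 0.000195). In bulk cultures, fewer cells that express a gene and less RNA per cell cannot be told apart.

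The other 7 of the 10 largest falls at this level of expression kept a few counts. DPYSL3, a regulator of the growth cone cytoskeleton, was at 0, 0 and 0.229 CPM against 27.3, 25.1 and 28.9 (382-fold lower, interval 175 to 1040). CES1, a carboxylesterase of drug and lipid metabolism, was at 0.241, 0 and 0 CPM against 24.5, 24.6 and 25 (262-fold lower, interval 133 to 608). NPTX1, a secreted neuronal pentraxin, was at 0.422, 0.737 and 0.343 CPM against 107, 112 and 126, a log2(fold change) of -7.93 ± 0.21 (SE). All 3 were below 1 CPM in every KO library and above 20 CPM in every wild-type library. The next 3 belong to the matrix or its signals and had 0 counts in at least 1 KO library. SPARC, a collagen-binding matrix protein, was at 0.151, 0 and 0 CPM against 8.70, 8.04 and 8.33 (142-fold lower, interval 60.9 to 439). HAS2, which makes hyaluronan, was at 0, 0.271 and 0 CPM against 8.37, 11.8 and 12.5 (131-fold lower, interval 63.3 to 325). GREM1, a secreted BMP antagonist, was at 0.181, 0 and 0 CPM against 8.29, 10.9 and 7.15 (127-fold lower, interval 58.4 to 348). ANKRD30A was at 0.121, 0.155 and 0 CPM against 10.1, 10.8 and 13.2 (119-fold lower, interval 60.3 to 276). The FDR of these 7 genes lay between 1.03e-06 (NPTX1) and 0.000444 (HAS2).

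Near-complete loss was found for a small part of the falls. Of the 872 protein-coding genes that fell, 40 had at most 30 counts over the 3 KO libraries and at least 300 over wild type. The wild-type libraries were deeper, and the reverse count was not made for the rises. A log2(fold change) below -3 was found for 139 protein-coding genes and above 3 for 34. ZNF799, a zinc finger gene, had 3 counts in the KO and 562 in wild type (99.9-fold lower, interval 34 to 486). ABCA1, the transporter that loads cholesterol onto apolipoproteins, fell without such loss. It was at 3.31, 3.49 and 4 CPM against 70.4, 80 and 90.0, a log2(fold change) of -4.55 ± 0.14 (FDR 1.38e-06). Intervals and floors cover counting error only, because PCR copies of 1 molecule could not be told apart in these reads.

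The largest rises, with the same minimum of expression, began from a low level in wild type. ITIH5, a heavy chain that stabilizes hyaluronan in the matrix, was at 10.7, 8.80 and 9.07 CPM against 0.221, 0.135 and 0.722 (log2(fold change) 4.73 ± 0.49, FDR 0.000511). NPY1R, a receptor of neuropeptide Y, was at 14.4, 9.23 and 11.1 CPM against 0.425, 0.706 and 1.11 (3.90 ± 0.33, FDR 0.000183). CNTNAP2, a neurexin-like adhesion protein, was at 8.94, 4.07 and 4.80 CPM against 0.357, 0.605 and 0.168 (3.84 ± 0.48, FDR 0.00117). In each of these the lowest KO library was above the highest wild-type library by several times. DCDC1, a doublecortin-domain protein that binds microtubules, was at 35.5, 34.9 and 27.4 CPM against 2.72, 2.51 and 3.44 (3.42 ± 0.16, FDR 1.45e-05). HRH2, the histamine receptor of gastric acid secretion, was at 43.5, 63.3 and 51.7 CPM against 5.45, 5.47 and 6.54 (3.11 ± 0.17, FDR 3.16e-05). PPARGC1A, a coactivator of mitochondrial biogenesis and of gluconeogenesis, was at 15.9, 15.6 and 10.6 CPM against 1.72, 1.5 and 1.66 (3.02 ± 0.21, FDR 8.92e-05). The remaining 4 of the 10 were KCNT2, a sodium-activated potassium channel (3.4 ± 0.25), A1CF, a cofactor of apolipoprotein B mRNA editing (3.4 ± 0.25), KRT4, a mucosal keratin (3.14 ± 0.30), and SLC5A9, a sugar transporter (2.99 ± 0.31). Their levels in the KO ranged from 3.98 CPM (SLC5A9 in S23) to 18.1 CPM (A1CF in S23), and their levels in wild type from 0.391 CPM (SLC5A9) to 1.73 CPM (KRT4).

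**Figure D3:**
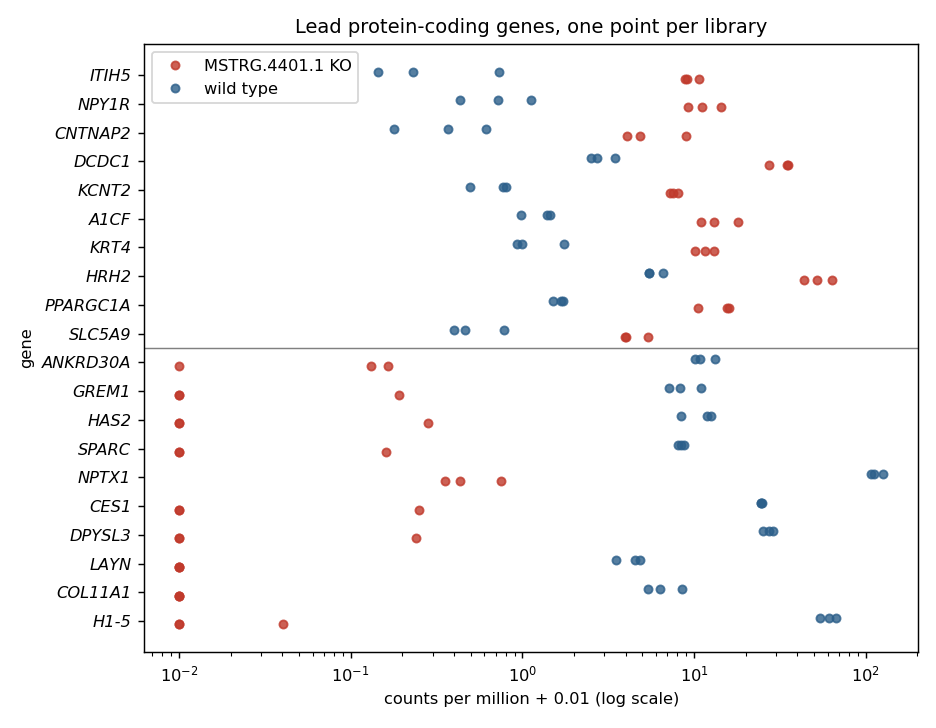
The plot gives CPM plus 0.01 on a log scale (x axis) of the 20 lead protein-coding genes (y axis), with a point for each KO and wild-type library and a line between the genes that rose and those that fell. The points of KO and wild type do not overlap for any gene, which the choice of these genes required, and points at 0.01 are libraries with 0 counts.

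Genes of the mesenchymal state fell far more often than they rose. Of 33 mesenchymal genes tested, 19 fell and 1 rose (16 and 1 with scaling over protein-coding genes), with a median of -1.16 against -0.19 over all protein-coding genes. MMP2, a gelatinase, fell from 6.73, 5.58 and 7.60 CPM to 0.151, 0.155 and 0.343 (-5.02 ± 0.35, FDR 9.02e-05). TNC, the matrix glycoprotein tenascin C, fell from 2.33, 2.44 and 2.17 CPM to 0.331, 0.426 and 0 (-3.26 ± 0.65, FDR 0.00736). The member that rose was MMP14, the membrane-bound protease that activates pro-MMP2, at 7.71, 13.2 and 10.5 CPM against 3.28, 3.89 and 3.85 (1.44 ± 0.23, FDR 0.00311). The most abundant members did not pass the fold threshold. VIM, the intermediate filament vimentin, was at 943, 732 and 930 CPM against 1404, 1494 and 1549 (-0.85 ± 0.14). FN1, fibronectin, was at 573, 447 and 454 CPM against 281, 316 and 361 (0.55 ± 0.12).

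Collagens and laminins held members of both directions. Of 31 collagens tested, 9 fell and 2 rose (8 and 2 over protein-coding genes), with a median of -0.12 that became 0.09 under that scaling. COL4A6, a basement membrane collagen, fell from 32.1, 30.9 and 36.6 CPM to 1.42, 2.56 and 0.800 (-4.47 ± 0.33, FDR 0.000112). COL5A1, a fibril-forming chain, fell from 230, 234 and 299 CPM to 50.5, 53.8 and 42.9 (-2.45 ± 0.12, FDR 2.05e-05). COL5A3, of the same collagen type, rose from 0.628, 0.454 and 0.385 CPM to 3.4, 2.99 and 3.28 (2.61 ± 0.31, FDR 0.000885). The rise of COL7A1, which anchors epithelia to the stroma, rested on S24 and S25, at 48.9, 552 and 408 CPM against 42.4, 51.2 and 125, and its call was lost without S24, S25, S20 or S21.

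Of 11 laminins tested, 3 fell and 3 rose under either scaling. LAMA4, a chain of vascular and muscle laminins, had 0 counts in the KO and 1.94, 1.23 and 1.97 CPM in wild type, at least 16-fold lower (FDR 0.000838). LAMA5, a chain of widespread basement membranes, rose to 1397, 1679 and 1826 CPM from 1034, 408 and 656 (1.13 ± 0.32, FDR 0.0272), and this call was lost without S25 or without S21.

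Of 29 integrins, the receptors for matrix, 10 fell and 3 rose (9 and 3 over protein-coding genes), with a median of -0.66. The count of 3 was 1 without S24 or without S21. ITGA3, a laminin receptor chain, fell from 745, 781 and 830 CPM to 316, 299 and 322 (-1.41 ± 0.11, FDR 0.000126). ITGB6, of the integrin that activates latent TGF-β, fell from 7.63, 9.54 and 13 CPM to 3.89, 2.99 and 1.98 (-1.84 ± 0.26, FDR 0.00217). ITGB1, the common β1 chain, fell from 1498, 1591 and 1453 CPM to 866, 657 and 705 (-1.11 ± 0.14, FDR 0.00124), a call that ended under the scaling over protein-coding genes. ITGA11 and ITGA4 fell as well (-1.80 ± 0.15 and -1.67 ± 0.35). ITGA1, a collagen receptor chain, rose to 33.9, 30.7 and 26.3 CPM from 8.12, 10.2 and 9.26 (1.64 ± 0.14, FDR 0.000175).

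Protease inhibitors of the matrix fell more often than they rose. Of 20 TIMP and SERPIN genes tested, 7 fell and 1 rose under either scaling, with a median of -0.82. TIMP2 fell from 273, 289 and 277 CPM to 60.8, 47.3 and 44.3 (-2.54 ± 0.13, FDR 2.22e-05). TIMP3, which stays bound to matrix, had 13 counts in the KO and 415 in wild type (17-fold lower, interval 9.84 to 32.2). SERPINE2, a thrombin inhibitor, fell from 100, 108 and 113 CPM to 24.9, 17.2 and 13.5 (-2.62 ± 0.19, FDR 9.93e-05).

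Targets of TGF-β and of BMP moved apart by gene. Of 29 tested, 8 fell and 6 rose (6 and 6 over protein-coding genes), with a median of -0.19 that became 0.004 under that scaling. PMEPA1, a feedback inhibitor of TGF-β signalling, fell from 350, 377 and 424 CPM to 119, 83.9 and 103 (-1.99 ± 0.14, FDR 8.92e-05). TGFBI, a TGF-β-induced matrix protein, fell from 1711, 1831 and 1999 CPM to 1093, 740 and 855 (-1.12 ± 0.16), which was no longer called over protein-coding genes. The BMP ligands rose. BMP7 was at 10.7, 7.71 and 11 CPM against 1.09, 1.28 and 1.13 (2.99 ± 0.23, FDR 0.000117), and BMP4 at 46.8, 39.6 and 42.5 CPM against 9.05, 7.95 and 9.34 (2.21 ± 0.13, FDR 4.07e-05). ID4, a helix-loop-helix inhibitor induced by BMP, rose to 10.1, 10.5 and 15.2 CPM from 2.67, 3.2 and 3.73 (1.84 ± 0.23, FDR 0.00118).

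Of 26 targets of YAP and TEAD, the effectors of the Hippo pathway, 5 fell and 0 rose (3 and 0 over protein-coding genes), with a median of -0.31. AXL, a receptor tyrosine kinase, fell from 503, 543 and 506 CPM to 183, 157 and 179 (-1.66 ± 0.12, FDR 9.57e-05). NT5E, the ectoenzyme CD73, and FJX1, a Golgi kinase-like protein, fell as well (-1.32 ± 0.16 and -1.29 ± 0.13). CRIM1, a BMP-binding membrane protein, was at -0.94 ± 0.11 and did not pass the fold threshold. Of 32 genes of adherens junctions and actin, 3 fell and 0 rose (2 and 0 over protein-coding genes), and the count of 3 was 7 without S25. ACTG1, cytoplasmic γ-actin, fell from 6451, 7193 and 6622 CPM to 3705, 2747 and 3414 (-1.12 ± 0.17), a call lost over protein-coding genes. FLNC, a filamin that crosslinks actin, fell from 4.84, 5.20 and 3.97 CPM to 0.422, 1.24 and 0.915 (-2.54 ± 0.38, FDR 0.00248). CAV1, the coat protein of caveolae, fell from 594, 698 and 648 CPM to 207, 146 and 180 (-1.94 ± 0.15, FDR 0.000117).

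The promoter of SPARC, a matrix gene among the 10 largest falls, is shown as an example that holds a TEAD core motif. It is the 250 bases before the RefSeq start (GRCh38.p14, chr5:151686916-151687165, minus strand), and the capitals mark the reverse complement of GGAATG, 17 bases before the start.
SPARC promoter: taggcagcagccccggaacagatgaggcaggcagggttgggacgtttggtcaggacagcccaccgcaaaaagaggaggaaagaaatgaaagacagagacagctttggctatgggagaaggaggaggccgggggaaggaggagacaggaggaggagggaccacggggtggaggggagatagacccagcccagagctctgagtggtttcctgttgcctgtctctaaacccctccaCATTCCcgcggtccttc
GGAATG, searched on both strands, was in 11.9% of all promoters of this length, in 10.1% of those of tested protein-coding genes, in 12.4% of those of genes that rose and in 11.1% of those of genes that fell. TGANTCA, the AP-1 motif, was in 4.67% of those tested, 4.89% of those that rose and 6.97% of those that fell. A match describes the letters only.

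Growth factor genes held several large falls. IGFBP7, a secreted binder of insulin-like growth factors, fell from 158, 161 and 175 CPM to 4.58, 2.87 and 2.67 (-5.68 ± 0.20, FDR 2.43e-06). IGF2 fell from 8.53, 6.68 and 9.17 CPM to 0.632, 1.40 and 0.191 (-3.55 ± 0.50, FDR 0.00202). Of 13 members of the EGF receptor family and its ligands, 5 fell and 2 rose, whereas 1 fell and 2 rose over protein-coding genes. The count of 5 was 3 without S24 or without S22. TGFA, an EGF receptor ligand, fell from 15.9, 16.6 and 16.7 CPM to 9.31, 4.54 and 5.41 (-1.44 ± 0.24, FDR 0.00402). The calls of the ligands EREG (-1.12 ± 0.15) and NRG1 (-1.14 ± 0.17) ended over protein-coding genes, and that of NRG1 also without S22. ERBB3, a receptor of neuregulins, rose to 34.3, 29.4 and 30.3 CPM from 11.2, 11.2 and 14.4 (1.28 ± 0.13, FDR 0.000447).

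Epithelial genes did not move in 1 direction, and more of them fell than rose. Of 31 tested, 2 rose and 6 fell (3 and 5 over protein-coding genes), with a median of 0.14. The genes TJP3, CLDN2 and CDH1, given next, were higher in the KO and do not stand for the list. TJP3, a tight junction scaffold, rose to 13.1, 19.3 and 15.4 CPM from 4.23, 3.13 and 5 (1.88 ± 0.23, FDR 0.00102). CLDN2, a pore-forming claudin, rose to 97.2, 66.2 and 71.3 CPM from 26.7, 26.4 and 31.6 (1.39 ± 0.14, FDR 0.000494). CDH1, E-cadherin, was at 144, 115 and 138 CPM against 60.8, 63.1 and 68.1 (0.97 ± 0.11), which did not pass the fold threshold but did under upper-quartile scaling and over protein-coding genes. Of 10 keratins, 1 rose and 3 fell (3 and 3 over protein-coding genes). KRT19 fell from 19.7, 22 and 18.3 CPM to 5.93, 2.56 and 3.81 (-2.37 ± 0.28, FDR 0.000886). KRT18 (0.87 ± 0.17) and KRT7 (-0.97 ± 0.16) lay on opposite sides of 0 below the threshold, and KRT18 passed over protein-coding genes. KRT7 passed as lower with DESeq2, and without S23, S25, S21 or S22.

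Liver-type genes rose more often than they fell. Of 40 secreted proteins of liver and their HNF regulators, 12 rose and 6 fell (13 and 4 over protein-coding genes), with a median of 0.44. F7, a clotting factor, rose to 4.91, 5.08 and 5.41 CPM from 0.561, 0.690 and 0.866 (2.80 ± 0.24, FDR 0.000195). APOH, a phospholipid-binding plasma protein, rose to 7.44, 3.49 and 6.06 CPM from 1.85, 1.87 and 1.49 (1.61 ± 0.30, FDR 0.00592). HNF4A, a regulator of liver genes, was at 107, 94.6 and 113 CPM against 70.4, 67.2 and 79.4 (0.46 ± 0.11) and did not pass. NR5A2 (-1.25 ± 0.13), AMBP (-1.37 ± 0.27) and FOXA1 (-1.19 ± 0.17) fell, and the call of FOXA1 ended over protein-coding genes. MLXIPL, the carbohydrate-responsive factor ChREBP, which was outside the list, rose to 42.6, 69.7 and 61.7 CPM from 8.97, 9.28 and 8.90 (2.60 ± 0.20, FDR 0.000117). It was chosen after its values were seen.

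Secreted mucins and enzymes of drug metabolism rose more often than they fell. Of 16 mucins and goblet cell genes, 6 rose and 2 fell under either scaling, with a median of 0.39. MUC5B, an airway gel mucin, rose to 187, 257 and 220 CPM from 55.8, 55.8 and 72.2 (1.78 ± 0.15, FDR 0.000173). MUC5AC, the other airway gel mucin, rose to 160, 140 and 132 CPM from 49.9, 54.0 and 46.2 (1.44 ± 0.12, FDR 0.00016). The membrane mucin MUC16 rose by 2.12 ± 0.36. Of 33 cytochrome P450 enzymes, 13 rose and 2 fell (15 and 2 over protein-coding genes), with a median of 0.84, and the count of 13 was 7 without S24 and 8 without S21. CYP4F3, which inactivates leukotriene B4, rose to 30.3, 52.7 and 57.4 CPM from 5.96, 11.6 and 10.5 (2.27 ± 0.30, FDR 0.00153). CYP4F12 rose by 1.64 ± 0.16, while CYP27C1, a retinoid desaturase, fell from 9.53, 9.99 and 12.8 CPM to 1.51, 1.32 and 1.87 (-2.85 ± 0.22, FDR 0.000124). Of 9 glucuronosyltransferases, 4 rose and 2 fell (5 and 2 over protein-coding genes). UGT1A1 rose by 1.19 ± 0.18 and UGT1A9 fell by 2.62 ± 0.51, but the UGT1A genes share their 3′ exons and the counting may split reads among them.

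Of 4 metallothioneins, the zinc- and copper-binding proteins, 3 fell and 0 rose under either scaling. MT2A fell from 53.6, 45.7 and 31.1 CPM to 12.8, 8.95 and 7.13 (-2.28 ± 0.27, FDR 0.00091). MT1X fell from 11.8, 11.5 and 10.3 CPM to 5.36, 3.30 and 3.01 (-1.61 ± 0.24, FDR 0.0023). MT1F, at 1.96, 1.12 and 1.03 CPM against 1.44, 0.589 and 1.49, overlapped between the groups (0.15 ± 0.43). Metallothioneins are near-identical copies, so their counts are uncertain.

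Wnt and Notch genes held members of both directions. Of 32 Wnt targets and antagonists, 4 rose and 5 fell (7 and 4 over protein-coding genes). RNF43, AXIN2 and NKD1, which rose, are feedback inhibitors. RNF43, which removes Frizzled receptors, rose to 99.2, 85.3 and 80.5 CPM from 9.21, 11.9 and 19.5 (2.65 ± 0.22, FDR 0.000183), and AXIN2 rose to 32.1, 32.6 and 27.2 CPM from 8.03, 7.32 and 10 (1.78 ± 0.14, FDR 0.00014). NKD1 rose by 1.6 ± 0.18. The noncanonical ligand WNT5A fell from 5.66, 5.65 and 6.04 CPM to 1.14, 1.28 and 0.534 (-2.63 ± 0.30, FDR 0.000789). The receptor FZD2 (-1.92 ± 0.17) and the antagonist SFRP1 (-1.77 ± 0.14) fell. Of 25 Notch pathway genes, 3 rose and 0 fell (6 and 0 over protein-coding genes). NOTCH3 rose to 385, 404 and 573 CPM from 115, 120 and 140 (1.79 ± 0.18, FDR 0.000459), and its target HES1 to 13.7, 15.9 and 20.2 CPM from 6.32, 6.71 and 4.62 (1.41 ± 0.24, FDR 0.00379).

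**Figure D4:**
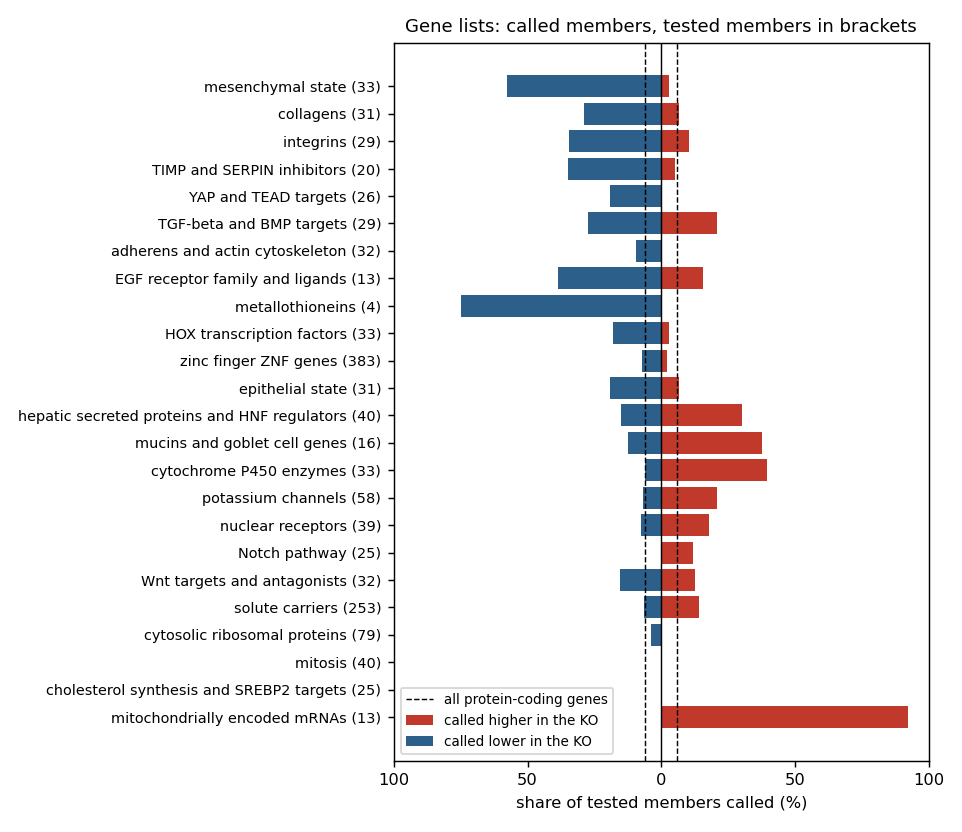
Bars give the share of tested members called higher (right) or lower (left) in the KO, in percent (x axis), for gene lists (y axis, tested members in brackets), under the main scaling. Dashed lines give the shares over all protein-coding genes, 5.89% higher and 6.01% lower. The mesenchymal list reaches furthest to the left but for the 4 metallothioneins, and the mitochondrially encoded mRNAs furthest to the right.

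Channels, transporters and nuclear receptors held more rises than falls, beside 5.89% higher and 6.01% lower over all protein-coding genes. Of protein-coding genes with an average log2 CPM below 0 and from 0 to 2, 16.3% and 16.7% rose. Whether these lists exceed genes of their own level was not tested. Of 58 potassium channels, 12 rose and 4 fell (17 and 4 over protein-coding genes), with a median of 0.45. KCNQ5, of the M-current channels, rose to 18.5, 16 and 15.4 CPM from 1.77, 2.24 and 2.53 (2.86 ± 0.18, FDR 5.74e-05). KCNMA1, the large-conductance calcium-activated channel, fell from 60.7, 68.3 and 70.6 CPM to 3.25, 4.34 and 2.90 (-4.33 ± 0.16, FDR 3.1e-06). KCNH1 and KCNN4, of other potassium currents, also fell (-2.01 ± 0.22 and -1.68 ± 0.13). Of 253 solute carriers, 36 rose and 16 fell (43 and 11 over protein-coding genes), with a median of -0.15 that became 0.047 under that scaling. SLC16A3, the lactate exporter MCT4, fell from 116, 110 and 121 CPM to 23.5, 24.4 and 25 (-2.33 ± 0.10, FDR 8.92e-06). The glucose transporters split, with SLC2A1 lower (-1.42 ± 0.11, FDR 0.000134) and SLC2A3 higher (1.61 ± 0.12, FDR 0.000106).

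Of 39 nuclear receptors, 7 rose and 3 fell (10 and 2 over protein-coding genes). ESRRG, an orphan receptor partnered by PPARGC1A, rose to 3.16, 2.52 and 2.67 CPM from 0, 0.168 and 0.168 (4.57 ± 0.68, FDR 0.00237). NR4A2 rose by 1.71 ± 0.22, and VDR, the vitamin D receptor, fell by 1.84 ± 0.34. CYP24A1, a target of VDR, was at 0.49 ± 0.15 and did not pass. Of 36 immediate early genes, 4 rose and 5 fell, which became 4 and 2 over protein-coding genes. FOS rose to 30.7, 15.2 and 28.9 CPM from 3.07, 4.91 and 2.72 (2.72 ± 0.33, FDR 0.00104) and EGR1 rose by 1.59 ± 0.31. JUN and JUNB, partners of FOS, fell (-1.33 ± 0.11 and -1.38 ± 0.10).

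Transcription factors of the HOX and zinc finger families held members of both directions. Of 33 HOX genes, 6 fell and 1 rose (6 and 2 over protein-coding genes). HOXD11 had 6 counts in the KO and 449 in wild type (39.9-fold lower, interval 18.2 to 109), and its neighbour HOXD10 fell by 2.52 ± 0.43. HOXB13 fell from 6.64, 5.42 and 6.57 CPM to 1.6, 1.24 and 1.37 (-2.22 ± 0.22, FDR 0.000378). The rise of HOXA3 rested on S23 (8.01, 1.94 and 1.87 CPM against 1.04, 0.639 and 1.44) and was lost without it or without S21. Of 383 ZNF genes, 28 fell and 8 rose (27 and 15 over protein-coding genes), with a median of -0.02 that became 0.18, against falls of 6.01% and a median of -0.19 over all protein-coding genes, and the count of 8 was 3 without S24. On chromosome 19, where most clusters of these genes lie, 20 of 169 fell and 5 rose, and elsewhere 8 of 214 fell and 3 rose. ZNF718 and ZNF365 fell (-4.60 ± 0.71 and -3.65 ± 0.73), and ZNF596 and ZNF704 rose by 1.25 ± 0.35 and 1.20 ± 0.15.

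Several housekeeping and stress programs held no called genes, or falls at a share not far from that of all protein-coding genes. Of 40 mitosis genes, 25 cholesterol synthesis genes and 38 genes of the ATF4 amino acid response, 0 were called in either direction, with medians of -0.31, -0.43 and -0.25 (-0.11, -0.23 and -0.05 over protein-coding genes). Of 79 cytosolic ribosomal proteins 3 fell, of 46 DNA replication genes 3 fell and of 33 p53 targets 2 fell, with 0 higher in each. Over protein-coding genes the falls in these 3 lists were 0, 0 and 1, and 1 ATF4 gene rose. At an unadjusted p under 0.05 the quasi-likelihood test found 25 of the 40, 17 of the 25 and 23 of the 38, mostly lower (24, 17 and 16). With DESeq2, 0 mitosis genes, 0 cholesterol synthesis genes and 1 ATF4 gene were called.

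The mitochondrially encoded RNAs rose together. Of 13 mRNAs 12 rose, of 20 tRNAs tested 18 rose, and both rRNAs rose, with 0 lower. MT-CO1, a subunit of cytochrome oxidase, was at 13600, 28080 and 29300 CPM against 8140, 8767 and 8819 (1.40 ± 0.31, FDR 0.0109). MT-ND3, a complex I subunit, was at 173, 444 and 340 CPM against 131, 76.1 and 76.1 (1.67 ± 0.37, FDR 0.0107). S23 was the KO library nearest to wild type for both. The 12 became 10 to 13 with each library left out, and the 18 became 8 without S24. Of 37 nuclear genes of complex I, 0 rose and 2 fell, beside 6.01% lower over all protein-coding genes, and 0 fell over protein-coding genes.

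The named noncoding genes are described apart. They were detected at lower levels, so that most calls rest on few counts, and the counts of overlapping genes are uncertain because the use of the strand in counting is not given in the sources used here. Over all named noncoding genes 17.8% rose and 2.45% fell, and the shares that rose among antisense genes, among intronic and overlapping transcripts and among copies of small RNAs lay near 17.8%. Among 404 intergenic genes named LINC, 102 rose and 15 fell, and among 809 antisense genes named AS, 125 rose and 23 fell. Of 285 tested 7SL, Y RNA and U6 copies 58 rose and 0 fell, which became 19 without S24 and 21 without S21. Of 79 intronic and overlapping transcripts 16 rose and 3 fell, and the 16 became 6 without S21. Of 31 snoRNA host lncRNA genes 0 were called, with a median of -0.004 against 0.55 over all noncoding genes, 7 had an unadjusted p under 0.05 (2 higher, 5 lower), and DESeq2 also called 0.

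The noncoding genes with the largest falls included genes of the imprinted DLK1-DIO3 region on chromosome 14. MEG3, a maternally expressed lncRNA (100779410 to 100861031, GRCh38), fell from 18.4, 20.5 and 20.2 CPM to 2.62, 5.27 and 3.74 (-2.43 ± 0.25, FDR 0.000492). MEG8 (100894770 to 101038859) fell from 14.5, 15.5 and 22.2 CPM to 3.37, 1.98 and 1.6 (-2.97 ± 0.28, FDR 0.000319). SNORD114-20, a C/D snoRNA that lies inside MEG8 in the annotation, fell from 11.5, 10.1 and 12 CPM to 2.26, 1.98 and 1.72 (-2.58 ± 0.19, FDR 9.93e-05). In all 3 every KO library was below every wild-type library, which their choice as lead genes required. MEG9 and the coding gene RTL1 of the region fell (-2.0 ± 0.77 and -2.28 ± 0.62), whereas DIO3 and DIO3OS, at its far end, did not pass (0.47 ± 0.44 and 0.18 ± 0.22). The region's other genes were named after the values of MEG3 and MEG8 were seen.

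LINC00707 fell from 31.7, 39.5 and 34.1 CPM to 7.14, 5 and 3.85 (-2.80 ± 0.21, FDR 0.000112). NNT-AS1 fell from 5.76, 6.44 and 7.24 CPM to 1.36, 0.698 and 0.839 (-2.81 ± 0.27, FDR 0.000348). RNA5-8SN1, a copy of the 5.8S ribosomal RNA, was at 32.3, 21.1 and 5.79 CPM against 1096, 47.9 and 899 (-5.22 ± 1.08, FDR 0.00844). The wild-type libraries thus ranged from 47.9 to 1096 CPM for it, ribosomal RNA was depleted before sequencing, and its copies share reads.

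Among the noncoding genes that rose, LINC02532 was at 54.8, 55.5 and 41.7 CPM against 7.44, 7.87 and 10.9 (2.47 ± 0.16, FDR 6.12e-05). NR2F2-AS1, antisense to the nuclear receptor gene NR2F2, was at 21.9, 25.5 and 20.5 CPM against 3.58, 4.37 and 3.39 (2.49 ± 0.17, FDR 8.92e-05), with NR2F2 itself at 0.82 and not called. LINC01948, LINC01139 and LINC01473 rose by 2.51 ± 0.24, 2.45 ± 0.27 and 2.29 ± 0.27. None of them overlapped between the groups, which their choice as lead genes required. Of 24 long-studied lncRNAs, 2 rose and 2 fell. NEAT1, the scaffold of paraspeckles, rose to 1376, 1935 and 1486 CPM from 722, 424 and 482 (1.47 ± 0.24, FDR 0.00368), and FTX by 1.02 ± 0.10, a call that ended with DESeq2 and without S24, S21 or S22. MALAT1, a lncRNA of nuclear speckles, was at 0.76 ± 0.18 and did not pass. TINCR, which the annotation now lists as coding, fell by 1.44 ± 0.28. RN7SL1 and RN7SL2, the RNA of the signal recognition particle, rose by 1.06 ± 0.36 and 1.22 ± 0.39, with wild-type library S20 at 41040 CPM for RN7SL1 against 23480 and 18870 in the others, and both calls were lost without S25, S21 or S22. That of RN7SL1 also ended without S24, with DESeq2 and at FDR < 0.05.

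The largest rise among the lead noncoding genes was at the microRNA gene MIR7854, whose mature sequence in RefSeq is given with its seed (bases 2 to 8) in capitals. It lies at chr16:81533942-81533962 (GRCh38.p14, plus strand).
hsa-miR-7854-3p: uGAGGUGAccgcagaugggaa
The gene was at 25.5, 41.1 and 32.6 CPM against 6.30, 0.757 and 0.770 (3.52 ± 0.78, FDR 0.0111), and at 5.38 without wild-type library S20. Of 154 microRNA genes tested, 19 rose and 3 fell, and the 19 became 8 without S21. These libraries of total RNA hold fragments of precursors and of overlapping transcripts, so the values are not levels of mature microRNAs.

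Antisense genes and their hosts were compared where both were tested, in 770 pairs. Of the antisense genes in these pairs 137 were called, and both partners were called in 32 pairs, of which 31 had the same direction. Reads of a gene and its antisense partner could be counted together if strand was not used. HAS2-AS1 had 17 counts in the KO and 275 in wild type (8.62-fold lower, interval 5.29 to 15), beside the fall of HAS2. NNT, the mitochondrial transhydrogenase, fell from 39.7, 46.8 and 50.1 CPM to 6.32, 4.03 and 4.57 (-3.27 ± 0.17, FDR 2.86e-05), beside NNT-AS1, and was named after its values were seen. KCNMA1-AS1 (-2.68 ± 0.50) fell beside KCNMA1. KCNQ5-AS1 rose beside KCNQ5, to 4.16, 4.57 and 3.16 CPM from 0.0679, 0.185 and 0.0962 (4.95 ± 0.40, FDR 0.00014). The exception was PCED1B, at -1.33 beside PCED1B-AS1 at 1.51.

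The deleted sequence that the methods give for A549 lies on chromosome 10 near LNCAROD and DKK1, but no source used here pairs it with a transcript name. LNCAROD, a lncRNA named as an activating regulator of DKK1, was at 1.36, 1.16 and 1.26 CPM against 2.12, 2.37 and 2.50 (-0.96 ± 0.24, FDR 0.0171). DKK1, a secreted Wnt antagonist, was at 527, 384 and 442 CPM against 210, 209 and 234 (0.97 ± 0.13, FDR 0.00149). Neither passed the fold threshold under the main scaling. LNCAROD passed it with DESeq2, and DKK1 over protein-coding genes.

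Protein-coding genes of chromosomes 9 and 17 were lower than those of the others. The median log2(fold change) was -0.42 on each of these chromosomes and between -0.25 and -0.09 on the other 21, which were examined after the values were seen. On chromosome 9, 81 of 588 tested genes fell (13.8%) and on chromosome 17, 98 of 901 (10.9%), against 2.85% to 8.27% on the others. Relative to all protein-coding genes the median was -0.25 to -0.19 on chromosome 9 with each library left out in turn, and -0.25 to -0.18 on chromosome 17. In MSTRG.2513.6 KO, another KO of A549, the median against the same wild type was -0.25 on chromosome 17 and 0.11 on chromosome 9. It lay between -0.097 and 0.12 on the others. The lower median of chromosome 17 was thus common to both KOs against the wild type they share, and that of chromosome 9 was not. The shift on chromosome 9 was in its distal part. From 80 Mb onward 70 of 402 genes fell and 9 rose (median -0.53), and before 80 Mb 11 of 186 fell and 11 rose (median -0.12), with the boundary set after the values were seen. Neighbouring genes can share a copy number, and copy number was not measured.

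**Figure D5:**
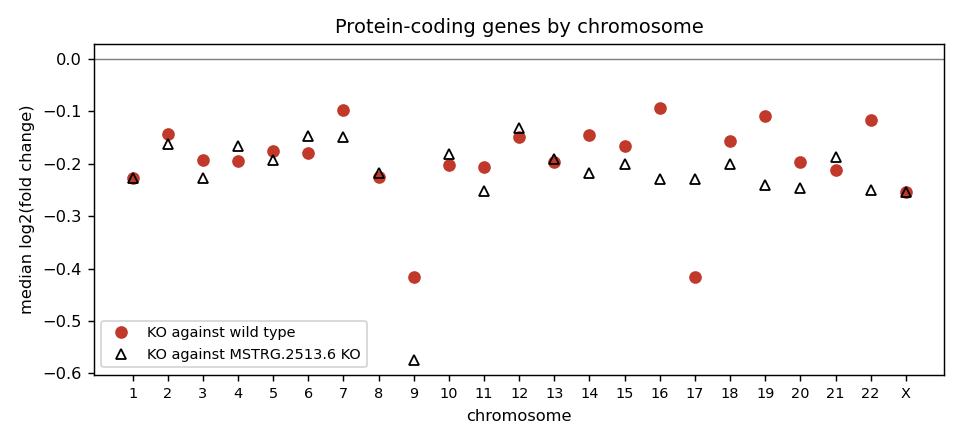
The plot gives the median log2(fold change) of protein-coding genes (y axis) for each chromosome (x axis), with circles for KO against wild type and triangles for MSTRG.4401.1 KO against MSTRG.2513.6 KO of A549. Chromosomes 9 and 17 are both at -0.42 against wild type, and against MSTRG.2513.6 KO chromosome 9 is at -0.57 and chromosome 17 at -0.23.

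The KO was also compared with the KO of another transcript, MSTRG.2513.6, in the same cell line, which involves no wild-type library. In that comparison 4181 of 25161 genes were called (16.6%). Of the 854 protein-coding genes that had risen against wild type 516 were called higher and 2 lower, and of the 872 that had fallen 609 were called lower and 7 higher, 825 being tested. Of the 429 noncoding genes that rose 243 were called higher. The comparisons share the MSTRG.4401.1 KO libraries, so these counts are not independent evidence. The medians over protein-coding genes were -0.57 on chromosome 9, -0.23 on chromosome 17 and between -0.25 and -0.13 on the others.

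The lead genes had a range of levels in MSTRG.2513.6 KO. H1-5 was at 22 to 30.9 CPM in its 3 libraries and DPYSL3 at 20.5 to 28.7, so neither was near 0. LAYN was at 9.31 to 14.7 CPM, GREM1 at 19.3 to 24.5 and CES1 at 89.7 to 106, each above its wild-type range. COL11A1 was at 0 to 0.0873 CPM, ANKRD30A at 0.0157 to 0.0699 and NPTX1 at 2.35 to 3.15, each far below its wild-type range as in MSTRG.4401.1 KO. PPARGC1A, KCNT2, CNTNAP2 and NPY1R, all of which rose in MSTRG.4401.1 KO, had 0 counts in all 3 libraries of MSTRG.2513.6 KO. DCDC1 was at 0.105 to 0.171 CPM there and A1CF at 0.0856 to 0.157. For LAYN, GREM1, CES1, PPARGC1A, KCNT2, CNTNAP2, NPY1R, DCDC1 and A1CF, every wild-type library lay between the libraries of one KO and those of the other. Both KOs share these wild-type libraries.

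The same transcript was knocked out in HCT116, a human colorectal carcinoma cell line, and the difference of the effect between the cell lines was tested as an interaction over 12 libraries. HCT116 has wild-type sets A and B by its labels, and set B was the control here. The difference passed at FDR < 0.1, with no fold threshold, for 8116 of 30134 genes (26.9%), and for 8481 genes with set A as control. Of all 15771 protein-coding genes tested for it, 1740 were higher in A549 and 4378 lower under the main scaling. With scaling over protein-coding genes 6353 differed, but their directions were not counted, so the balance of directions may rest on the scaling. Of all 3266 noncoding genes, 476 were higher and 63 lower. Of the protein-coding genes that rose in A549, 528 of 854 differed in the same direction, and of those that fell, 625 of 872. For noncoding genes these were 219 of 429 and 21 of 59. These genes were chosen on the same A549 libraries, and those near 0 in HCT116 can pass through A549 alone, so the counts are a description and no independent evidence. Of the 20 lead protein-coding genes 15 differed, and 9 of those 15 were below 1 CPM in every HCT116 library used. H1-5, LAYN, NPTX1, SPARC and GREM1 were among these 9, so that a fall of them in HCT116 could not have been measured. COL11A1, CES1, HAS2, ANKRD30A and KRT4 did not differ by the test, but were at 0.1331 CPM or less in every HCT116 library used. For them the lack of a called difference does not show a like effect in both cell lines. DPYSL3, at 42.3 to 43.8 CPM in HCT116 wild type B (29.3 to 49.3 in set A) and 55.4 to 58.8 in its KO, was measurable and did not fall. HRH2 was at 2.06 to 3.14 CPM in HCT116 wild type and 2.27 to 2.60 in its KO. In the test of HCT116 KO against its own wild type, DPYSL3 (0.40, FDR 0.00199) and NR2F2-AS1 (0.48, FDR 0.081) were the lead genes with an FDR below 0.1, and neither passed the fold threshold.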

How the data were processed

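RNA-seq of total RNA, with ribosomal RNA depleted and a strand-specific kit, was analysed for 3 MSTRG.4401.1 KO and 3 wild-type libraries of A549, with the other KO of A549 and the same KO and wild type of HCT116 for comparison. The authors trimmed reads with Trim Galore 0.6.6, aligned them to hg38 with HISAT2 2.2.1, counted them per gene with StringTie and deposited raw counts (whole numbers, 1 column a library, neither normalized nor pooled); FastQC 0.11.9 is also named in the submitters' processing notes. Which StringTie version and annotation release were used, and whether counting was by strand, is not given in the sources used here. Ribosomal depletion and the choice of annotation can affect the counts of small and repeated RNAs.

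From the deposited counts, KO and wild type were fitted with edgeR 4.0.16 (R 4.3.3, limma 3.58.1) using TMM, filterByExpr, glmQLFit and glmQLFTest, with Benjamini-Hochberg adjustment. Genes were called at FDR < 0.1 and |log2(fold change)| > 1, the thresholds of the study's methods. CPM values are per library total and carry no TMM factor. Genes at 0 in a group were set against 3 counts per library, and ratios of few counts carry exact 95% intervals. Depth was 25799359 to 59466012 counts. The script was tested on simulated data.

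Of 60641 symbols, 38300 were matched to GENCODE (37810 by the symbol, 490 by an older one) and 22262 are clone names, counted as a class and named nowhere. Members and lists were chosen with earlier results of these data known. Lead genes are the 10 protein-coding and 6 noncoding genes with the largest change in each direction, among called genes whose groups do not overlap and whose average log2 CPM is 1 or more. Genes of a list are named from its up to 3 largest changes in each direction (average log2 CPM 0 or more) and its 2 most abundant members. LNCAROD, DKK1 and cell type markers are named too. Some genes that this rule names are not reported here. Alternatives were DESeq2 1.42.0, the exact test of edgeR, upper-quartile and RLE scaling, scaling over protein-coding genes, no filter, at least 10 counts in every library, FDR < 0.05, glmTreat, no fold threshold, all A549 libraries in one fit and each library left out. Thinning of wild-type libraries to the KO depth was added after seeing the data.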

Additional observations from a re-analysis of the deposited data

Results flagged for a closer look

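The effect of the KO of MSTRG.4401.1 differed between A549 and HCT116, by the interaction test of edgeR over 12 libraries at FDR < 0.1, for 8116 of 30134 genes. The values below are log2 differences of the effects, A549 minus HCT116. For genes with no counts in HCT116 or in the A549 KO they depend on the prior count of the fit and are no bounds. Among lead protein-coding genes that fell in A549, the difference was -14.923 for H1-5, -14.26 for LAYN, -11.753 for GREM1, -9.042 for DPYSL3, -7.655 for NPTX1 and -6.701 for SPARC. DPYSL3 was at 42.3 to 58.8 CPM in the HCT116 libraries used (KO and wild type B), and the other 5 were below 1 CPM in each of them.

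Among lead protein-coding genes that rose, the difference was 8.775 for ITIH5, 7.457 for KCNT2, 6.144 for PPARGC1A and 6.11 for NPY1R, each below 1 CPM in every HCT116 library used. It was 3.086 for HRH2, 3.085 for CNTNAP2, 3.028 for DCDC1, 3.019 for SLC5A9 and 2.658 for A1CF, which reached 2.32 to 3.14 CPM in their highest HCT116 library. Among noncoding genes it was -6.666 for RNA5-8SN1, -3.125 for NNT-AS1, -2.758 for LINC00707, -2.731 for MEG8, 1.982 for NR2F2-AS1, 2.339 for LINC01473 and 5.277 for LINC01948. MEG8, NNT-AS1, LINC00707 and LINC01948 were below 1 CPM in every HCT116 library used. The part of depth and of the mitochondrial share, which moved with the KO in A549, was not tested.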

How the results depend on the processing

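Of 24979 genes tested, 3842 were called in the report, 649 with edgeR's glmTreat, which tests against the fold threshold itself, and 10925 without a fold threshold. In the same order, 854, 165 and 2241 protein-coding genes rose, 872, 302 and 5263 fell, 429, 46 and 748 noncoding genes rose and 59, 15 and 98 fell. Called members of the protein-coding lists, those of histones and mitochondrial mRNAs left out, were 396 by the test of the report, and 137 and 1306 here. With at least 10 counts in every library, 28 noncoding genes fell. With each library left out in turn, noncoding genes that rose numbered 263 (without wild-type S21) to 416, and 280 without KO S24. MT1F, not called, had a log2(fold change) of -0.225 to 0.376, below 0 without KO S23 (-0.225) and without wild-type S21 (-0.21). The cause was not tested, except that glmTreat and the lack of a threshold change the criterion itself. Of 178 named genes 164 were called, 109 with glmTreat, and 109 under every alternative. Upper-quartile scaling and scaling over protein-coding genes ended the calls of TGFBI, ITGB1, ACTG1, EREG and NRG1. COL7A1, MYL9, HOXA3, LAMA5, RN7SL1, RN7SL2 and FTX each lost theirs when 1 of several libraries was left out. No paired analysis was possible because the groups compared here share no replicate number. Depth limits genes near the floor of 0.0904 to 0.116 CPM in the KO.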

Other observations

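Genes of axon guidance, which also steer epithelial and vascular cells, changed in both directions. Of 38 semaphorins, plexins and netrins tested, 10 rose and 7 fell (13 and 5 with scaling over protein-coding genes), beside 5.89% and 6.01% over all protein-coding genes. SLIT1, a repulsive ligand, rose to 3.43, 4.69 and 6.71 CPM from 0.866, 0.992 and 1.40 (2.13 ± 0.32, FDR 0.00257). PLXNA2, a semaphorin receptor, rose to 12.4, 11.7 and 11.6 CPM from 2.70, 3.98 and 5.29 (1.51 ± 0.22, FDR 0.0023). SEMA3A, a secreted semaphorin, fell from 18.1, 24.2 and 25.2 CPM to 8.94, 5.93 and 6.17 (-1.76 ± 0.19, FDR 0.000598), and SEMA6B fell by 3.21 ± 0.50. The libraries of KO and wild type did not overlap for these 4 genes, as for 1657 of all 1726 called protein-coding genes.

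Of 32 NF-κB cytokines and chemokines, 3 rose and 5 fell (6 and 4 over protein-coding genes), and the 3 became 1 without S23. IL11, a cytokine of the IL-6 family, fell from 57.6, 60.5 and 60.4 CPM to 15.3, 14.5 and 7.62 (-2.34 ± 0.22, FDR 0.00031), and CSF1, the macrophage growth factor, from 68.5, 75.9 and 72.7 CPM to 24.6, 23.8 and 20.1 (-1.75 ± 0.11, FDR 4.94e-05). Of 37 interferon response genes, 2 rose and 5 fell (4 and 3 over protein-coding genes), and the 2 became 1 without S25. HERC5, the ligase of ISG15, fell by 1.42 ± 0.20, and IFI27 rose by 1.76 ± 0.29.

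Of 41 genes of autophagy and the lysosome, 7 fell and 0 rose (3 and 0 over protein-coding genes). NPC1 and NPC2, which pass cholesterol out of the lysosome, both fell. NPC2 went from 64.0, 65.3 and 66.0 CPM to 23.4, 12.6 and 18.8 (-1.91 ± 0.20, FDR 0.000497). Of 37 proteasome subunits, 5 fell and 0 rose (2 and 0 over protein-coding genes), and the 5 became 8 with DESeq2 or without S22 and 9 without S23. PSMB8 and PSMB9, subunits of the immunoproteasome, were among them (-1.13 ± 0.17 and -1.61 ± 0.29), and the call of PSMB8 ended over protein-coding genes. Of 22 genes of fatty acid synthesis and storage, 5 fell and 0 rose (2 and 0 over protein-coding genes), and the 5 became 3 without S24. DGAT2, which makes triglyceride, fell by 1.44 ± 0.27.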
